A study of Danio rerio with 33 samples.

Results

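The AP2 transcription factor family of the zebrafish was followed through a study of Kctd15 in embryos and gonads. Its members were the 5 genes listed as tfap2a, tfap2b, tfap2c, tfap2d and tfap2e in a gene table of 30490 genes. They were taken by symbol and not by their values, but with earlier results of these data known. Polyadenylated RNA was sequenced from 33 libraries in 11 groups of 3, which the labels call biological replicates. The 7 embryo groups, all collected at 10 somites, were kctd15 mutants, AP2 (5 pg), AP2-P59 (5 pg), AP2 (5 pg) with kctd15 (100 pg), AP2-P59 (5 pg) with kctd15 (100 pg), kctd15 alone (100 pg) and wild type. The injected embryos were of wild-type genotype, and no injection is named for the mutant or the wild-type embryos. The 4 gonad groups were kctd15 mutant ovary, kctd15 mutant testis, wild-type ovary and wild-type testis, all from adult fish. The labels do not say which AP2 gene was injected, in what form, what the P59 version alters or which kctd15 gene is mutated.

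AP2 proteins bind DNA as dimers through a helix-span-helix domain and activate transcription through a domain near the amino end. In vertebrate embryos they act in non-neural ectoderm, at the border of the neural plate and in the neural crest. In zebrafish, tfap2a and tfap2c act together in forming ectoderm and neural crest, and tfap2e takes part with tfap2a in pigment cells. In the mouse, Tfap2b is needed in kidney and sympathetic neurons and Tfap2d in the midbrain. Kctd15, a BTB-domain protein, binds the activation domain of AP2, lowers its activity and inhibits neural crest formation.

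Libraries held 15152199 to 24131756 estimated counts. Levels are CPM, a library's counts scaled to a common total, after TMM scaling of all 33 libraries together, and a log2 fold change comes from edgeR's quasi-likelihood test, called at an adjusted p under 0.05. The files give no transcript lengths, so the levels of different tfap2 genes are not compared with each other. Tissue markers matched the labels: 10 ovary markers summed to 9757 to 11017 CPM in mutant ovaries and 9044 to 10451 CPM in wild-type ovaries, but to 36.6 to 41.3 CPM in mutant testes and 25.7 to 41.0 CPM in wild-type testes. The 11 testis markers summed to 3062 to 3961 CPM in mutant testes and 3154 to 5711 CPM in wild-type testes. They were lower but not absent in ovaries, at 1318 to 1863 CPM in mutants and 860 to 1232 CPM in wild type. A pair of libraries stood apart. Replicate 3 of the mutant ovaries held 240 genes at 10 CPM or more that were at 1 CPM or less in both other mutant ovaries, against 0 to 11 such genes in the other libraries. Replicate 1 of AP2-P59 with kctd15 held 2.14e-08 estimated counts of the kctd15a transcript NM_001006012, against 171 and 473 in the other libraries of its group. The 6 libraries of the other kctd15-injected groups held 201 to 731. Where these libraries decide an overlap or a call, the values without them are given as well.

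tfap2a and tfap2c were the members with high counts in embryos, tfap2b was low in every group, and tfap2d and tfap2e had their highest levels in gonads. In embryos tfap2a ranged between 124 and 305 CPM (1909 to 4758 estimated counts), tfap2c between 245 and 398 CPM (3803 to 6251 counts) and tfap2b between 2.25 and 6.94 CPM (37.0 to 105 counts). tfap2d reached at most 0.48 CPM (7.08 counts) in an embryo library and tfap2e at most 0.90 CPM (14.0 counts). In gonads tfap2d ranged between 1.86 and 13.3 CPM and tfap2e between 0.32 and 8.15 CPM. The filter on low counts therefore left 3 of the 5 members (tfap2a, tfap2b, tfap2c) in the embryo comparisons and all 5 in those that involve gonads.

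**Figure D1:**
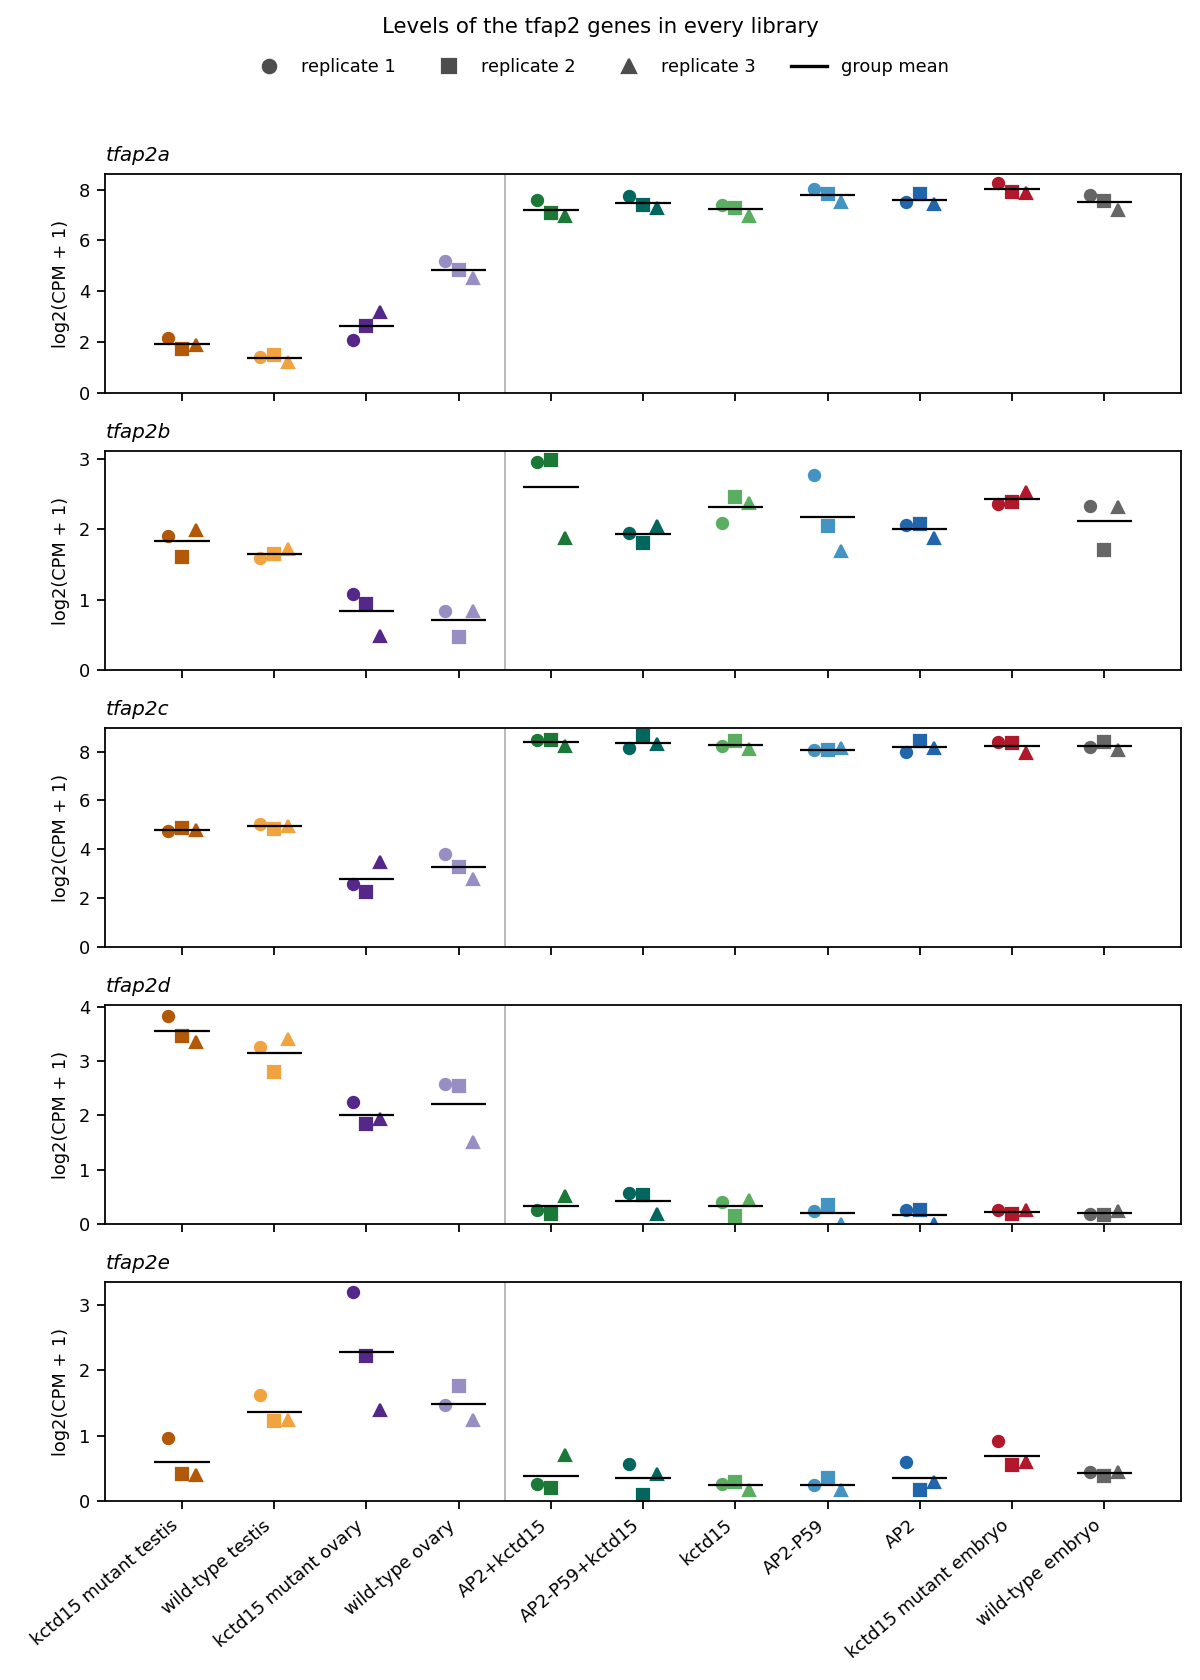
Level of each tfap2 gene in every library, as log2(CPM + 1), with gonad groups left of the grey line and embryo groups right of it. Points are libraries, marker shapes are replicate numbers and bars are group means. tfap2a in mutant ovaries (3.28 to 8.13 CPM) lies below wild-type ovaries (21.7 to 35.4 CPM), and tfap2d is near 0 in every embryo group.

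The order of tfap2a over the groups began with mutant embryos (259 ± 39.5 CPM, SD, n = 3, as for every group here), followed by AP2-P59 (220 ± 39.7), AP2 (192 ± 29.7), wild-type embryos (185 ± 35.5), AP2-P59 with kctd15 (177 ± 31.8), AP2 with kctd15 (150.0 ± 34.9) and kctd15 (149.6 ± 22.9). The library ranges of each neighbouring pair in that order overlapped. Wild-type ovary (28.3 ± 6.88 CPM) was separated from every embryo group and from mutant ovary (5.53 ± 2.44 CPM). Mutant ovary overlapped mutant testis (2.81 ± 0.56 CPM), which lay above wild-type testis (1.62 ± 0.25 CPM).

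For tfap2c all 7 embryo groups lay between means of 270.2 ± 7.75 CPM (AP2-P59) and 337 ± 30.0 CPM (AP2 with kctd15), and neighbours overlapped. Wild-type testis (29.7 ± 2.27 CPM) and mutant testis (26.8 ± 1.40 CPM) came next and overlapped each other. The ovaries were lowest, at 6.28 ± 3.31 CPM in mutants and 9.22 ± 3.70 CPM in wild type. tfap2b ran from 5.46 ± 2.42 CPM in AP2 with kctd15 to 0.66 ± 0.23 CPM in wild-type ovary, and the only gap between neighbouring groups lay between the testes and the ovaries. The order of tfap2d began with mutant testis (10.9 ± 2.19 CPM) and wild-type testis (8.06 ± 1.88 CPM), which overlapped. Below them were wild-type ovary (3.89 ± 1.75 CPM) and mutant ovary (3.05 ± 0.62 CPM), and then all embryo groups at 0.35 CPM or less. tfap2e was highest in mutant ovary (4.49 ± 3.33 CPM), with wild-type ovary (1.84 ± 0.52 CPM) and wild-type testis (1.60 ± 0.42 CPM) overlapping its range. Mutant testis (0.53 ± 0.36 CPM) had a lower mean than mutant embryos (0.63 ± 0.24 CPM) and overlapped them.

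In kctd15 mutant embryos tfap2a stood at 305, 238 and 235 CPM, against 218, 188 and 147 CPM in wild-type embryos. All 3 mutant libraries lay above all 3 wild-type libraries after TMM scaling. In CPM without the TMM factors the ranges overlapped, with 197.9 CPM in mutant replicate 3 and 199.3 CPM in wild-type replicate 1. The log2 fold change was 0.48 (SE 0.20, 95% interval 0.07 to 0.90) with an adjusted p of 0.179 (edgeR), so tfap2a was not called. In this comparison 26.5% of all genes tested had libraries that did not overlap, and 4.09% were called, 1.36% higher and 2.73% lower. In bulk RNA, a change in the number of cells of a type and a change in RNA per cell cannot be told apart.

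With replicate number as a block the tfap2a value was 0.49 with an adjusted p of 0.0079, among 13.1% of all genes called. The correlations of equally numbered mutant and wild-type libraries were 0.364, 0.239 and 0.115 on the log2(CPM + 1) scale, but 0.263, 0.163 and 0.0598 on a log scale that damps low counts, so whether the numbers pair these samples depends on the scale. Over all embryo groups the deviations of 20 of 21 libraries correlated best, on average, with those of their own number in other groups. tfap2c did not separate: 334, 322 and 245 CPM in mutants and 292, 338 and 263 CPM in wild type gave a log2 fold change of 0.01 (95% interval -0.30 to 0.31, adjusted p = 0.989). For tfap2b the 4.16, 4.26 and 4.77 CPM of mutants stood against 4.06, 2.26 and 4.01 CPM, a log2 fold change of 0.35 (SE 0.35, adjusted p = 0.633). The 3 mutant libraries lay just above the highest wild-type library. Without the TMM factors these tfap2b ranges overlapped, with 3.66 CPM in mutant replicate 1 and 3.75 CPM in wild-type replicate 3. tfap2e had 14.0 counts at most in mutant embryos, too few to be tested, at 0.90, 0.47 and 0.52 CPM in mutants against 0.36, 0.31 and 0.36 CPM in wild type. The tfap2e ranges did not overlap. Altogether 0 of 3 tested members were called without the block.

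Lists of other ectodermal genes were read in the same mutant embryos. The 17 neural plate border genes of a fixed list summed to 1033 to 1247 CPM in mutants and 794 to 1001 CPM in wild type, and 15 of 17 had a positive log2 fold change (median 0.23, against -0.01 over all genes tested), with 0 called. The 17 epidermis and periderm genes summed to 27737 to 37813 CPM in mutants and 19785 to 24641 CPM in wild type. Of these, 3 were called higher and none lower: krt97 (log2 fold change 1.10, adjusted p = 0.0186), cyt1l (0.83, 0.0311) and cyt1 (0.84, 0.0483), all keratin-type filament genes. Over all genes tested 1.36% were called higher and 2.73% lower. The neural crest genes had a median of 0.02, with 8 of 15 positive and 0 called, and summed to 714 to 854 CPM in mutants and 651 to 812 CPM in wild type. The embryo body markers, genes of muscle, notochord and neural tube, summed to 699 to 994 CPM in mutants and 591 to 747 CPM in wild type, with 10 of 10 positive and 0 called. Blood markers summed to 56.9 to 65.1 CPM in mutants and 34.4 to 55.1 CPM in wild type. The part of these shifts in the tfap2a values was not tested.

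Injected kctd15 was set against its own background in 3 comparisons. tfap2a stood at 190, 135 and 125 CPM after AP2 with kctd15 and at 179.7, 226 and 171 CPM after AP2. It stood at 212, 165 and 152 CPM after AP2-P59 with kctd15 and at 259, 223 and 179 CPM after AP2-P59. After kctd15 alone it was 169, 156 and 124 CPM, against 218, 188 and 147 CPM in wild-type embryos. Group means were lower with kctd15 in each background, and the library ranges overlapped in each. For AP2-P59 with kctd15 the overlap rested on replicate 1, and the other libraries (165 and 152 CPM) lay below all AP2-P59 libraries. The log2 fold changes were -0.36 (SE 0.20), -0.32 (SE 0.20) and -0.31 (SE 0.20), each with an adjusted p of 1. None of the 3 tested members was called in any of these comparisons, in which 0.197% (0.0134% higher, 0.184% lower), 0% and 0% of all genes were called.

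Averaged over the 3 backgrounds, the kctd15 value of tfap2a was -0.33 (SE 0.11, 95% interval -0.57 to -0.09) with an adjusted p of 0.476 (edgeR), in a comparison that called 0.525% of all genes, 0.0762% higher and 0.448% lower. Same-numbered libraries deviated together in all 3 backgrounds, with correlations of 0.187 to 0.613. With the replicate block tfap2a was called lower, at -0.33 with an adjusted p of 0.00834, among 1.34% of all genes called. In same-number pairs tfap2a was lower with kctd15 in 8 of 9, the exception being replicate 1 of AP2 with kctd15. Without replicate 1 of AP2-P59 with kctd15, the averaged value was -0.39 (adjusted p = 0.222) and the value against AP2-P59 was -0.50 (adjusted p = 0.882), both from fits without the block.

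tfap2c took the other sign. It was higher with kctd15 in 9 of 9 same-number pairs, and its averaged log2 value was 0.17 (SE 0.09, 95% interval -0.00 to 0.35, adjusted p = 0.912, and 0.313 with the block), so it was not called. The share of all genes with 8 or 9 of 9 pairs in 1 direction was not counted. Against AP2 the tfap2c value was 0.19 (SE 0.15), and for kctd15 alone against wild type 0.04 (SE 0.15). In AP2-P59 with kctd15 tfap2c stood at 282, 398 and 315 CPM, against 269, 263 and 278 CPM after AP2-P59, ranges that did not overlap, as in 7.84% of all genes (log2 fold change 0.29, SE 0.15, adjusted p = 1). Without replicate 1 of the co-injected group that value was 0.38 (adjusted p = 0.882). In CPM without the TMM factors the ranges overlapped, with 258.0 CPM in that replicate and 264.9 CPM in replicate 3 of AP2-P59.

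tfap2b had its widest spread after AP2 with kctd15, at 6.78, 6.94 and 2.67 CPM, against 3.19, 3.21 and 2.68 CPM after AP2. Replicates 1 and 2 were high and replicate 3 lay below every AP2 library. The log2 fold change was 0.85 (SE 0.35, adjusted p = 0.809). After AP2-P59 with kctd15 the libraries held 2.87, 2.51 and 3.15 CPM, against 5.83, 3.13 and 2.25 CPM after AP2-P59, with a log2 fold change of -0.39 (SE 0.36, adjusted p = 1). The difference between the kctd15 values on these backgrounds was 1.24 (SE 0.50, adjusted p = 1), where 0% of all genes were called.

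**Figure D2:**
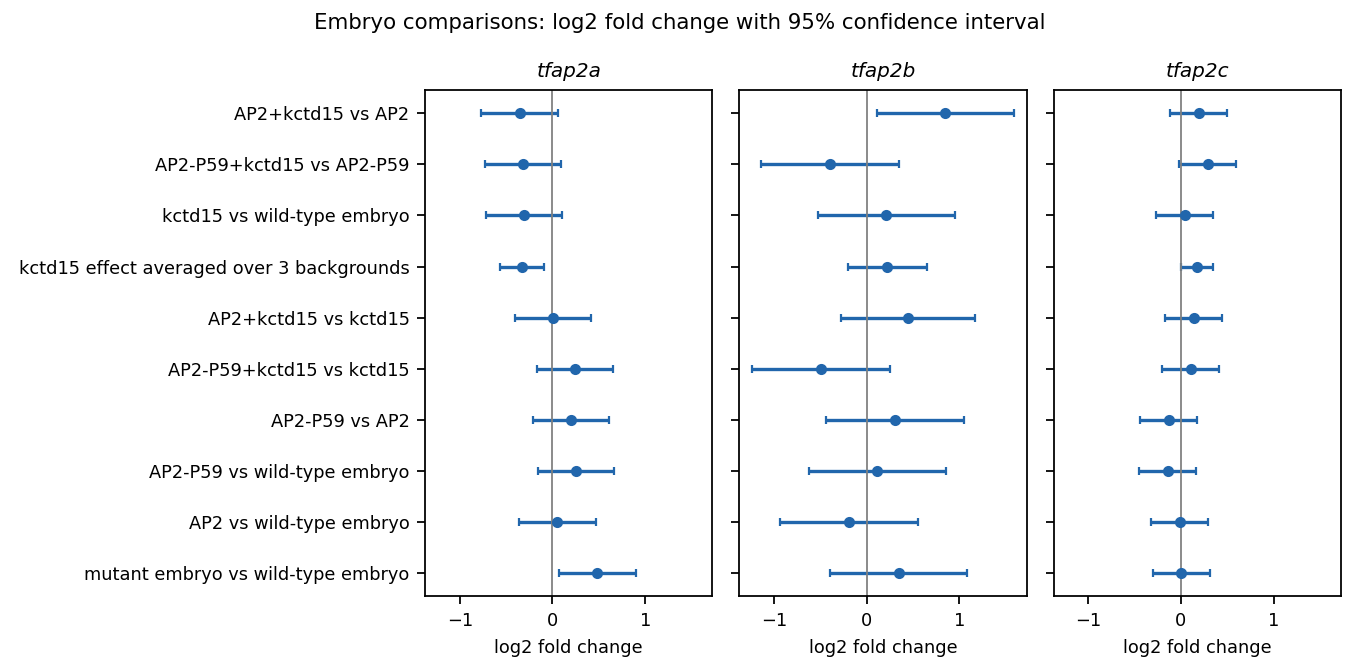
Log2 fold change of tfap2a, tfap2b and tfap2c in 10 embryo comparisons, with 95% intervals from the quasi-likelihood fit. The tfap2a intervals exclude 0 for the averaged kctd15 value (-0.33) and for mutants (0.48). That of tfap2b excludes 0 for AP2 with kctd15 against AP2 (0.85). None of the 3 passes adjustment over all genes in these fits, which have no replicate block. With the block both tfap2a values were called, though whether the numbers pair mutants with wild type depends on the scale.

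None of the 3 tested members was called after injection of AP2 or AP2-P59. Against wild-type embryos (218, 188 and 147 CPM), tfap2a stood at 179.7, 226 and 171 CPM after AP2 and at 259, 223 and 179 CPM after AP2-P59. Both groups overlapped wild type. The log2 fold changes were 0.05 (95% interval -0.36 to 0.47, adjusted p = 1) for AP2 and 0.25 (95% interval -0.16 to 0.67, adjusted p = 0.943) for AP2-P59. tfap2c gave -0.01 (95% interval -0.32 to 0.29) after AP2 and -0.14 (95% interval -0.45 to 0.17) after AP2-P59. In tfap2b the values were -0.19 (95% interval -0.93 to 0.56) and 0.12 (95% interval -0.62 to 0.86). In both comparisons 0% of all genes were called. Of 22305 genes tested, 745 and 1199 had an unadjusted p under 0.05, a cut that some genes pass without any change.

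AP2-P59 was also set directly against AP2. The log2 difference was 0.20 for tfap2a (95% interval -0.21 to 0.61), 0.30 for tfap2b (95% interval -0.44 to 1.05) and -0.13 for tfap2c (95% interval -0.44 to 0.18), each with an adjusted p of 1 and 0% of all genes called. On top of kctd15, AP2 gave 0.01 for tfap2a (95% interval -0.41 to 0.42) and AP2-P59 gave 0.24 (95% interval -0.17 to 0.66), neither called, again with 0% of all genes called. Without replicate 1 of AP2-P59 with kctd15 the last value was 0.07.

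The ratio of tfap2c to tfap2a within a library does not depend on how libraries are scaled, and was examined after the levels had been seen. It was 1.85, 2.65 and 2.42 after AP2 with kctd15, against 1.41, 1.53 and 1.67 after AP2. AP2-P59 with kctd15 gave 1.33, 2.41 and 2.07, against 1.04, 1.18 and 1.55 after AP2-P59. After kctd15 alone it was 1.78, 2.22 and 2.22, against 1.34, 1.80 and 1.79 in wild-type embryos. In mutant embryos the ratio was 1.10, 1.35 and 1.04, against those same wild-type values. The ratio was thus higher with kctd15 in 9 of 9 same-number pairs and higher in mutants in 0 of 3. It is formed from the tfap2a and tfap2c values given above, so these counts are a description and no separate evidence. Ranges did not overlap for AP2 with kctd15 against AP2, and overlapped in the other 3 comparisons. For AP2-P59 with kctd15 the overlap lay in replicate 1 only, and the other libraries (2.41 and 2.07) were above all AP2-P59 libraries. The comparisons of kctd15 alone and of mutants share the wild-type libraries.

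**Figure D3:**
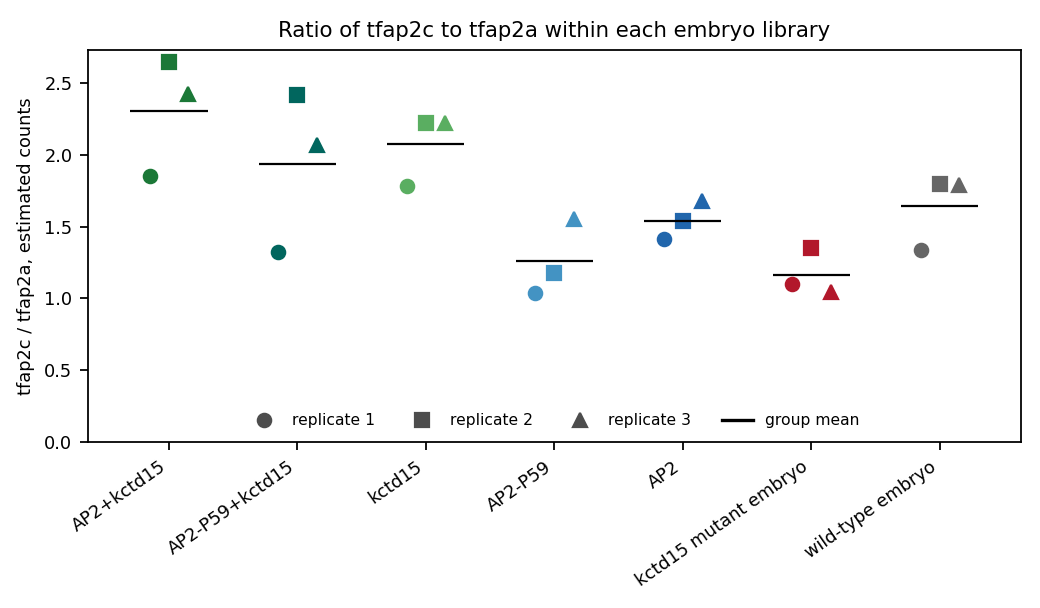
Ratio of tfap2c to tfap2a estimated counts within each of 21 embryo libraries. Points are libraries, shapes replicate numbers and bars group means, which are 2.31 for AP2 with kctd15, 1.94 for AP2-P59 with kctd15, 2.07 for kctd15, 1.26 for AP2-P59, 1.54 for AP2, 1.16 for mutants and 1.64 for wild type.

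The ovary held the clearest change within the family. tfap2a stood at 3.28, 5.18 and 8.13 CPM (40.6, 96.0 and 124 estimated counts) in kctd15 mutant ovaries, against 35.4, 27.8 and 21.7 CPM (582, 429 and 303 counts) in wild-type ovaries. Every mutant library lay below every wild-type library. The fall was 2.33 on the log2 scale, as a fold change of -2.33 (SE 0.38, 95% interval -3.15 to -1.51, adjusted p = 0.0192). It was the 1 member called of 5, where 0.553% of all genes tested were called (0.348% higher, 0.205% lower) and 15.4% did not overlap.

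The size held when mutant replicate 3 was left out (-2.75, adjusted p = 0.0141). The call did not hold without mutant replicate 2 (adjusted p = 0.0568), wild-type replicate 1 (0.0519) or wild-type replicate 2 (0.0665), or with the spread estimated from the 6 ovary libraries only (0.106), with log2 values of -2.14 to -2.34. Sums of germ cell genes were 2100 to 2751 CPM in mutant ovaries and 1762 to 1827 CPM in wild-type ovaries. Testis markers, of which 1 was at 0 in every library of each ovary group, summed to 1318 to 1863 CPM in mutant ovaries and 860 to 1232 CPM in wild-type ovaries. Embryo body markers, low in ovary, summed to 17.5 to 30.3 CPM in mutant ovaries and 7.72 to 17.2 CPM in wild-type ovaries (median log2 fold change 0.58, 6 of 8 positive). None of these 3 pairs of ranges overlapped. Sums of ovary markers, epidermis genes (2169 to 3268 CPM in mutants and 1753 to 3136 CPM in wild type) and blood markers (23.3 to 32.5 CPM and 19.2 to 36.1 CPM) did overlap. No list had a member called. The part of these shifts in the tfap2a value was not tested.

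The other members were not called in mutant ovaries. tfap2c had 5.04, 3.77 and 10.0 CPM in mutants against 13.2, 8.69 and 5.80 CPM in wild type, a log2 fold change of -0.53 (SE 0.37, adjusted p = 0.560). Only mutant replicate 3 lay inside the wild-type range, and without it the value was -1.08 (adjusted p = 0.201), whereas without wild-type replicate 1 it was -0.19 (adjusted p = 0.882). tfap2e had 8.15, 3.67 and 1.64 CPM in mutants against 1.77, 2.40 and 1.36 CPM in wild type, a log2 fold change of 1.27 (SE 0.59, adjusted p = 0.341). Replicates 1 and 2 lay above all wild-type libraries and replicate 3 among them, and without replicate 3 the value was 1.66 (adjusted p = 0.224), but without replicate 1 it was 0.53 (adjusted p = 0.734). The log2 fold changes of tfap2d and tfap2b were -0.34 (adjusted p = 0.755) and 0.30 (adjusted p = 0.837), the last being 0.02 to 0.61 when 1 library was left out.

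The counts of tfap2a were assigned to different transcript models in gonads and in embryos. Of the 4 transcripts that RefSeq lists for tfap2a, 2 were in the transcript table. XM_005162558, a predicted model, took 96.2%, 78.2% and 96.2% of the gene value in mutant ovaries and 96.4%, 96.3% and 96.3% in wild-type ovaries. NM_176859 was at 0 in all 6 ovary libraries. In testes XM_005162558 took 39.3%, 79.1% and 96.3% in mutants and 56.4%, 96.0% and 67.7% in wild type.

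In embryos the group means of XM_005162558 were 1.56% to 4.18% and those of NM_176859 0.64% to 1.21%, so that most of the embryonic tfap2a value lay in transcripts not tied to the gene here. XM_005162558 itself stood at 3.12, 4.05 and 7.80 CPM in mutant ovaries, against 34.2, 26.8 and 20.9 CPM in wild-type ovaries. As the model takes most of the gene value in ovaries, its fall repeats that of the gene and is no separate result. The model was at 7.25 ± 0.10 CPM in mutant embryos and 3.87 ± 0.94 CPM in wild-type embryos. Wild-type ovaries were thus the group with the most of this model, at 27.3 ± 6.64 CPM, while embryos had the higher gene value. How reads divide among transcripts of 1 gene is an estimate whose error the files do not give. Gene values are also no plain sums of transcript counts, since the tfap2b transcript XM_005160883 came to 102.63% to 102.96% of its gene in mutant ovaries. A rest of a few percent therefore need not lie in other transcripts.

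**Figure D4:**
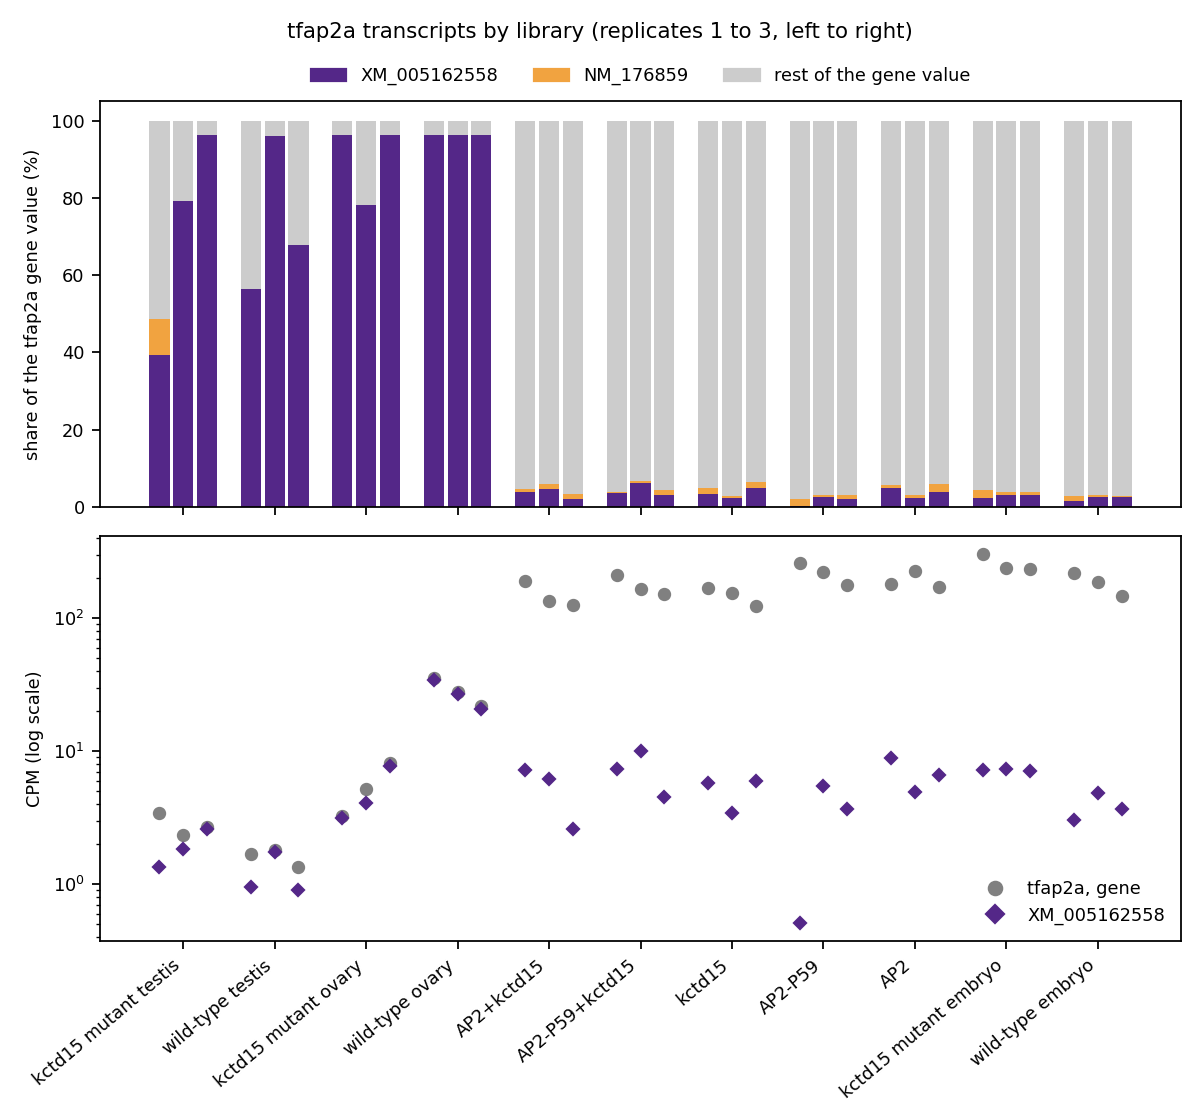
Upper panel, share of the tfap2a gene value (%) assigned to XM_005162558, NM_176859 and the rest in every library, with replicates 1 to 3 from left to right in each group. Lower panel, CPM on a log scale of the gene (grey circles) and of XM_005162558 (purple diamonds). In wild-type ovaries the model equals 96.3% of the gene value, in wild-type embryos 2.16%. A gene value is no plain sum of its transcripts, so a rest of a few percent need not be other transcripts.

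Transcripts of the other members were checked the same way. tfap2c and tfap2e each had 1 matched transcript, with gene values of 0.992 to 1.00 and 0.994 to 1.00 times its own. For tfap2b, NM_001024665 was at 0 in all ovary libraries, while it held group means of 6.56% to 29.6% in embryos. XM_005160883 took the larger mean share of tfap2b in every group. The matched transcripts of tfap2d moved widely between libraries of 1 group: NM_001025546 took 38.1%, 3.63% and 28.6% of the gene value in wild-type testes.

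In kctd15 mutant testes tfap2a stood at 3.43, 2.33 and 2.67 CPM (89.5, 69.9 and 84.1 counts), against 1.69, 1.82 and 1.33 CPM (42.6, 44.8 and 34.8 counts) in wild-type testes. The groups did not overlap, as was the case for 15.6% of all genes. The log2 fold change was 0.82 (SE 0.37, adjusted p = 0.702). tfap2e had 0.95, 0.33 and 0.32 CPM in mutants against 2.09, 1.33 and 1.37 CPM in wild type, also without overlap, with a log2 fold change of -1.56 (SE 0.61, adjusted p = 0.592). tfap2d, tfap2b and tfap2c overlapped, at 0.46 (adjusted p = 0.933), 0.31 (adjusted p = 0.982) and -0.12 (adjusted p = 0.995). 0 of 5 members were called, with 0.0696% of all genes called (0.0271% higher, 0.0425% lower) and 1813 of 25870 genes tested at an unadjusted p under 0.05. In these testes blood markers summed to 28.2 to 40.8 CPM in mutants and 41.0 to 164 CPM in wild type, and epidermis genes to 549 to 775 CPM and 1020 to 1167 CPM. The part of these shifts in the tfap2 values was not tested.

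The mutant values of tfap2a had opposite signs in ovary and in the other tissues. Set against each other in 1 fit of all libraries, the value in embryos exceeded that in ovaries by 2.84 (SE 0.36, adjusted p = 4.98e-05), and the call stood in each of 12 refits without 1 library. That fit pools the spread between replicates, a common coefficient of variation of 0.331, against 0.241 in the embryo fit and 0.429 in the gonad fit. Its SE and p may therefore understate the spread of the ovaries. tfap2a was called alone among the 3 members that passed the filter on embryo libraries, in a comparison with 2.96% of all genes called. The value in testes exceeded that in ovaries by 3.15 (SE 0.53, adjusted p = 0.0665), which was not called, in a comparison with 0.0812% of all genes called (0.0232% higher, 0.058% lower). Without mutant ovary replicate 3 this difference was 3.56 (adjusted p = 0.0212). Embryo and testis differed by -0.31 (SE 0.37, adjusted p = 0.835), where 0.47% of all genes were called. The embryo and ovary, and the embryo and testis, comparisons were added after the data had been seen.

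Between wild-type gonads 4 of 5 members were called, 3 higher and 1 lower in testis, where 70.5% of all genes were called (41.6% higher, 28.9% lower). tfap2a had 1.69, 1.82 and 1.33 CPM in testis against 35.4, 27.8 and 21.7 CPM in ovary, a log2 fold change of -4.06 (SE 0.41, adjusted p = 3.42e-06). tfap2c had 31.7, 27.2 and 30.3 CPM in testis against 13.2, 8.69 and 5.80 CPM in ovary, a log2 fold change of 1.75 (SE 0.38, adjusted p = 0.00136). The groups of both genes were far apart and in opposite order. tfap2b was also higher in testis (2.01, 2.14 and 2.29 CPM against 0.79, 0.39 and 0.79 CPM in ovary, log2 fold change 1.76, adjusted p = 0.00484).

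tfap2d had 8.54, 5.98 and 9.65 CPM in testis against 4.99, 4.80 and 1.86 CPM in ovary, with a log2 fold change of 1.11 (SE 0.39, adjusted p = 0.0225). That call was lost without ovary replicate 3 (0.78, adjusted p = 0.0743), testis replicate 1 (1.07, 0.0533) or testis replicate 3 (0.96, 0.0761). tfap2e did not separate after TMM scaling, at 2.09, 1.33 and 1.37 CPM in testis against 1.77, 2.40 and 1.36 CPM in ovary. Its log2 fold change was -0.15 (95% interval -1.42 to 1.13). In CPM without the TMM factors every testis library (3.29, 2.16 and 2.20 CPM) lay above every ovary library (1.49, 2.12 and 1.19 CPM). Whether tfap2e differs between wild-type gonads thus depends on the scaling. The tfap2c to tfap2a ratio was 15.1 to 22.9 in wild-type testes and 0.27 to 0.37 in wild-type ovaries. It was 7.51 to 12.2 in mutant testes and 0.73 to 1.56 in mutant ovaries, so that the mutant gonads lay between the wild-type ones.

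Against wild-type embryos, the 3 members that passed the filter on embryo libraries (tfap2a, tfap2b, tfap2c) were called lower in wild-type ovary, where 68.9% of all genes were called (31.9% higher, 36.9% lower). tfap2c (-5.01, SE 0.29), tfap2a (-2.70, SE 0.26) and tfap2b (-2.38, SE 0.42) were lower in ovary. tfap2d and tfap2e entered this fit only through gonad groups in which they are high. Their log2 values (4.64, SE 0.65, and 2.41, SE 0.64) are therefore a description, with 1.92 to 3.19 and 4.99 to 6.0 counts a library in wild-type embryos. In wild-type testis 2 of those 3 were called lower, with 67.6% of all genes called (34.8% higher, 32.8% lower): tfap2a (-6.83, SE 0.32) and tfap2c (-3.32, SE 0.27). The values of tfap2d (5.69, SE 0.65) and tfap2e (2.20, SE 0.63) carry the same limit. tfap2b was not called in testis (-0.68, SE 0.38, adjusted p = 0.111). With RLE size factors the median of all genes in the testis comparison moved by 0.28, to 0.40 against 0.11 with TMM, and the direction of no called member changed. The ovary and testis comparisons share the wild-type embryo libraries.

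Genes that act with AP2 were read from a fixed list of 17 partners and co-regulators, all of them tested. The list holds kctd15a and kctd15b, and kctd15 is what the study mutates or injects. Calls of kctd15a and kctd15b are therefore no result about the other partners. In mutant embryos 1 was called higher and none lower (1.36% and 2.73% of all genes tested). This was kctd15a, at 218, 198 and 204 CPM in mutants against 61.1, 55.4 and 42.7 CPM in wild type (log2 fold change 1.95, SE 0.39, adjusted p = 0.00866), with no overlap. In the averaged kctd15 comparison 2 were called lower and none higher (0.448% and 0.0762% of all genes tested). They were kctd15b (-1.50, SE 0.23, adjusted p = 0.00264) and kctd1, a close relative of kctd15 that also inhibits AP2 (-1.12, SE 0.22, adjusted p = 0.0158). The median of the list was 0.01 in the averaged comparison and -0.00 in mutants, beside 0.01 and -0.01 over all genes tested. None was called in mutant ovaries or mutant testes. kctd15b in mutant ovaries had 0.96, 0.27 and 0.39 CPM against 4.45, 1.82 and 2.65 CPM in wild type, separated but not called (-2.48, SE 0.66, adjusted p = 0.128).

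Genes of the tissues in which AP2 acts were read in the averaged kctd15 comparison, in which tfap2a was called lower only with the replicate block. Over all genes tested 0.448% were called lower and 0.0762% higher there, with a median of 0.01. In the same comparison 6 of 15 neural crest genes tested were called lower and none higher, with a median of -0.64 and 0 of 15 positive. Among them were sox10, a crest transcription factor (-1.52, adjusted p = 0.00743), crestin (-1.17, adjusted p = 0.000126) and snai1b (-0.85, adjusted p = 0.000496). Of 17 epidermis and periderm genes 3 were called lower and 1 higher, with a median of -0.17 and 2 of 17 positive. The 1 higher was krt97 (0.81, adjusted p = 0.00703), also called higher in mutant embryos. The list summed to 14235 to 18571 CPM after AP2 with kctd15, apart from 20053 to 26291 CPM after AP2. After kctd15 the sum was 16612.9 to 19815 CPM, overlapping 19784.5 to 24640.9 CPM in wild type. After AP2-P59 with kctd15 it was 14599 to 21750 CPM, overlapping 18916 to 25046 CPM after AP2-P59 through replicate 1 only. Of 17 neural plate border genes 0 were called (median -0.05). The sum of neural crest genes was 354 to 487 CPM after AP2 with kctd15 against 678 to 695 CPM after AP2, and 429 to 557 CPM after kctd15 against 651 to 812 CPM in wild type. In both comparisons the groups were apart. After AP2-P59 with kctd15 it was 429 to 710 CPM against 703 to 959 CPM after AP2-P59, and these groups overlapped through replicate 1 of the co-injected group only. Without it the values were 429 and 505 CPM, apart from AP2-P59. The earlier results of these data were known when these lists were drawn up, so they are no independent evidence of a direction.

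Over 21 embryo libraries the gene whose log2(CPM + 1) followed tfap2a most closely was dlx3b, a homeobox gene of the neural plate border and placodes (Pearson r = 0.94), of 13869 candidates. The next were a row listed under a date in place of a symbol (0.93), msx1b, another homeobox gene of that border (0.91), and znf385a (0.90). dlx3b stood at 162, 121 and 123 CPM in mutant embryos, where tfap2a was highest, and at 65.6, 55.9 and 43.2 CPM after kctd15, where it was lowest, against 109, 84.3 and 70.2 CPM in wild type. These libraries share scaling and replicate numbers, and the values are a description. The closest to tfap2c was isoc1 (r = 0.81). Among the members themselves r was 0.12 for tfap2a with tfap2b, -0.11 for tfap2a with tfap2c and 0.07 for tfap2b with tfap2c.

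**Figure D5:**
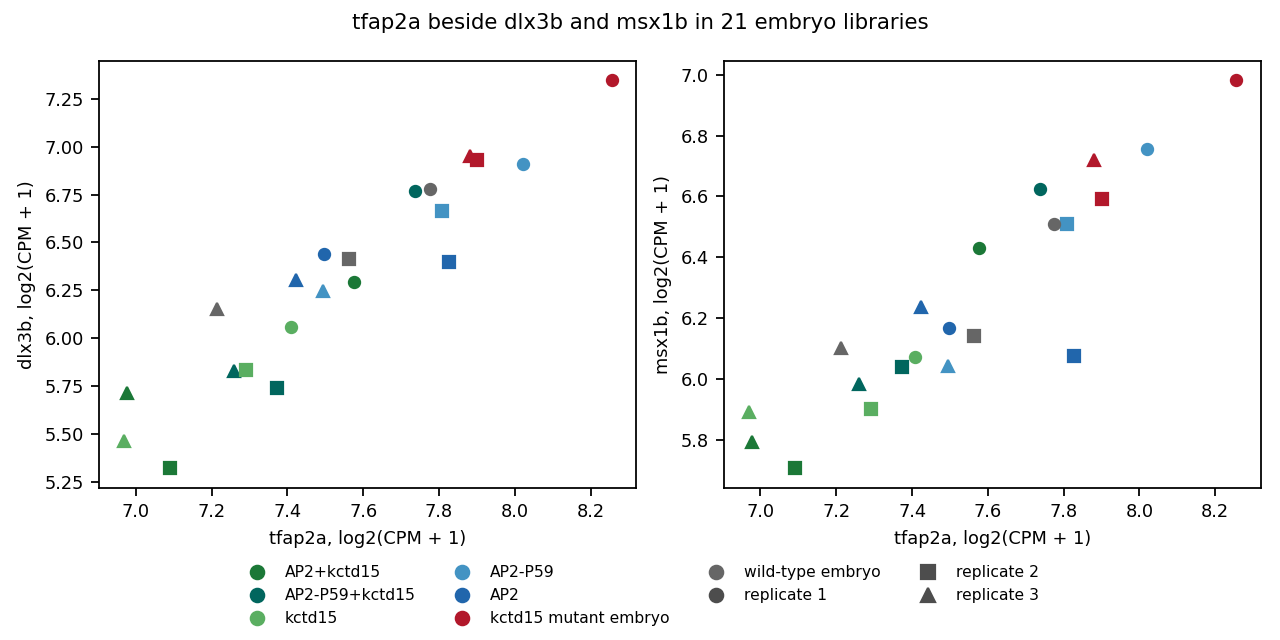
Levels of dlx3b and msx1b against tfap2a in 21 embryo libraries, each as log2(CPM + 1). Colours are groups and shapes replicate numbers. Mutant embryos lie at the upper right (dlx3b at 121 to 162 CPM), and kctd15 embryos towards the lower left (dlx3b at 43.2 to 65.6 CPM).

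Profiles over all 11 groups were compared by the root mean square difference of centred log2(CPM + 1) group means. The closest to tfap2a was sall4, a zinc finger gene of stem and germ cells, at a difference of 0.504, and then grhl1, an epidermal transcription factor, at 0.586. sall4 had 38.0 CPM in mutant ovary against 81.2 CPM in wild-type ovary, but 549 CPM in mutant embryos against 643 CPM in wild-type embryos. For tfap2c the closest were prickle1b, a planar polarity gene (0.115), and soga1 (0.119), with chd, a secreted BMP antagonist, the fourth (0.161). Those of tfap2b, tfap2d and tfap2e were paqr3b (0.175), nap1l4b (0.136) and pls1 (0.0991). pls1 had 15.2 CPM in mutant ovary against 8.88 CPM in wild-type ovary, and 3.76 CPM in mutant testis against 8.07 CPM in wild-type testis.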

How the data were processed

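Per the labels and the submitters' processing notes, polyadenylated RNA was sequenced, reads were trimmed with Trimmomatic 0.36 and quantified on GRCz10 transcripts with kallisto 0.43.0, and edgeR was used for normalization. The authors deposited estimated counts for 30490 genes and 54435 transcripts, and a normalized signal in CPM for 25374 genes. That CPM table was each gene column times 1 constant and served only as an alternative. Library totals, 15152199 to 24131756 estimated counts, limit the precision, and no intervals of the quantification were used.

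Gene-level estimated counts were rounded to whole numbers and tested in edgeR 4.0.16 under R 4.3.3 (scaling by TMM, filterByExpr with a minimum count of 10 and a minimum total of 15, robust quasi-likelihood F tests, two-sided, Benjamini-Hochberg adjustment over all genes tested). Embryo comparisons used 21 libraries (22305 genes, 14 residual degrees of freedom), gonad comparisons 12 libraries (25870 genes, 8 degrees of freedom) and comparisons between them all 33 (26799 genes, 22 degrees of freedom). Of 19 comparisons, 17 were planned and 2 added after the data had been seen. Levels are means ± SD of TMM-scaled CPM. All fits were run on simulated data with known changes. A minimum recovery of the larger changes was required there, except in the mutant ovary comparison.

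The members, lists and tests were chosen with earlier results of these data known. Named genes are the 5 tfap2 genes, kctd15a, kctd15b, the 4 genes most like a member by group profile or, for tfap2a and tfap2c, by correlation over embryo libraries, and called members of the lists. Of the neural crest list 16 of 18 genes were in the table, of epidermis and periderm 17 of 18, of germ cell genes 14 of 15, of ovary and of embryo body markers 10 of 11 each, and of the other lists all.

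Replicate numbers come from the labels. Same-numbered libraries were taken as paired where the correlation of their deviations from the group means was above 0.1 for each number, which held in 8 of 14 pairs of groups on the log2(CPM + 1) scale: all pairs with kctd15 injection, AP2 against wild type, AP2-P59 against AP2, and, on this scale but not on another, mutant against wild-type embryos. Alternatives were RLE size factors, no low-count filter, DESeq2 1.42.0, the replicate block, only the compared groups, and leaving out each library. The files and tables used hold no sequence or length for these genes in the files' build, so none is shown. Transcripts were tied to genes by a RefSeq gene table of another assembly, GRCz12tu, from which only names were taken.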

Additional observations from a re-analysis of the deposited data

Results flagged for a closer look

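The mutant value of tfap2a differed between tissues. It was 0.48 in mutant embryos and -2.33 in mutant ovaries, and after TMM scaling every mutant library lay on the opposite side of its wild-type libraries in these tissues. Without the TMM factors the embryo groups overlapped (197.9 CPM in mutant replicate 3, 199.3 CPM in wild-type replicate 1). In 1 fit of all libraries the difference, embryo minus ovary, was 2.84 (edgeR's quasi-likelihood test, adjusted p = 4.98e-05), and 2.59 to 3.22 when 1 library was left out. That fit pools the spread of embryo and gonad libraries, so its p may understate the spread of the ovaries. The difference between testis (0.82) and ovary was 3.15 (adjusted p = 0.0665), again with every library of the tissues on opposite sides. Of all genes tested, mutant and wild-type libraries did not overlap for 26.5% in embryos, 15.4% in ovaries and 15.6% in testes. The share of genes apart in opposite directions in both tissues of a pair was not counted.

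For tfap2e every library of mutant embryos lay above wild type and every library of mutant testes below it, and the difference, embryo minus testis, was 2.44 (adjusted p = 0.256). tfap2e entered this fit only through the gonads, being under the filter on embryo libraries. The embryo share of 26.5% therefore does not cover tfap2e. The difference rests on 7.0 to 14.0 counts a library in mutant embryos and 9.96 to 24.9 in mutant testes.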

How the results depend on the processing

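Of 942 alternative values of single tfap2 genes, 931 kept their side of the threshold, 7 lost a call and 4 gained one. Among called values 0 changed sign, while 44 of the 931, all uncalled, did. Against the authors' deposited CPM, 0 of 55 group levels moved by 1 SD or more. The count of members called was 1 with the replicate block, and 0 without it, both in the averaged kctd15 comparison and in mutant embryos, tfap2a each time. Apart from these, the block changed no call of a tfap2 gene. In mutant ovaries it was 0 with only the compared groups and 0 to 1 when 1 library was left out, against 1. For the mutant value in testis minus that in ovary it was 1 with DESeq2 and 0 to 1 when 1 library was left out, against 0.

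Counts over all genes moved more. Mutant embryos gave 912 calls, 2931 with the block, 1642 with DESeq2 and 263 to 756 without 1 library. Mutant ovaries gave 143, 1070 with DESeq2, 23 with only the compared groups and 33 to 142 without 1 library, and mutant testes 18, 302 with DESeq2, 10 with the block and 7 with only the compared groups. The averaged kctd15 comparison gave 117, 298 with the block and 227 with DESeq2, and AP2 with kctd15 against AP2 gave 44, 143 and 151, and 0 with only the compared groups. With 0 calls in edgeR, kctd15 against wild type gave 12 with the block and 18 with DESeq2, AP2-P59 with kctd15 against AP2-P59 gave 13 and 16, and AP2-P59 against wild type 0 and 11. Embryo minus ovary gave 792, 1313 with the block, 1610 with DESeq2 and 119 with only the compared groups, and testis minus ovary gave 21, 13 with the block and 399 with DESeq2. Embryo minus testis gave 126, 380 and 533, and the higher calls were 39.7% of the 126 and 49.9% of the 533. The cause was not tested. The low counts of tfap2d and tfap2e in embryos limit what could be tested there.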

Other observations

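The predicted tfap2a model XM_005162558 had 8.29 estimated counts in 1 AP2-P59 library, replicate 1, against 61.8 and 80.6 in the other AP2-P59 libraries. NM_176859 had 79.9 counts in replicate 1, the most of its group. Both models together held 88.2 counts there, against 104.2 and 91.5 in replicates 2 and 3, so their sum did not fall likewise. The gene value of tfap2a in that library was 4172 counts, the highest of its group. In tfap2b the transcript NM_001024665 was at 0 in replicate 2 of AP2-P59 with kctd15 (mean share 6.56%, range 0% to 15.6%), while it held 24.1% to 37.7% after AP2-P59, 12.2% to 17.1% after AP2 with kctd15 and 10.1% to 28.9% after AP2. These shares were not tested.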
